A study of Mus musculus with 3 samples.

Results

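The CC chemokine receptors are the cell surface receptors that read gradients of CC chemokines, the small secreted proteins that steer leukocytes between blood, lymphoid organs and tissues. The genes described are Ccr1, Ccr2, Ccr3, Ccr4, Ccr6, Ccr7, Ccr8, Ccr9 and Ccr10, taken by symbol after the gene identifiers of the count tables had been matched to GENCODE M21, and all 9 were found among 22457 genes. Their transcripts were counted by RNA-seq of polyA plus RNA from regulatory T cells of mice, a suppressive class of CD4 T cell marked by the transcription factor Foxp3. Adult animals aged 4 months gave the primary cells, whose origin is stated as haematopoietic cells of the bone marrow, and the sources used here give no strain, treatment or sorting markers. The labels give 1 group of 3 libraries, technical replicates 1, 2 and 3 of biological replicate 1, so no conditions could be compared. By these labels every SD and p-value below measures the spread between libraries of 1 sample, not between animals. Some markers of other cells differed widely between the libraries, such as the plasma cell transcript Igha with 4, 1007 and 149 counts. Whether the libraries came from 1 pool of cells was not tested.

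Chemokine receptors are seven-helix receptors that signal through inhibitory G proteins, and arrestins and receptor kinases switch them off. Each receptor reads its own set of chemokines, and several receptors share ligands. In regulatory T cells Ccr7 is known for homing to lymph nodes, Ccr4, Ccr6 and Ccr8 for entry into skin, mucosa and inflamed tissue, and Ccr9 for homing to the gut.

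Total counts were 3206781, 3228215 and 2872350 in libraries 1, 2 and 3. Levels are in CPM, the share of a library's counts times 1000000, with the mean ± SD over the libraries (n = 3). Genes are ranked by length-scaled levels, that is, counts per 1000 bases of coding sequence scaled to a sum of 1000000 per library, whereas shares of counts and summed CPM of marker lists carry no length correction. The defining markers of the labelled cell type were present, with Foxp3 at 455, 507 and 432 counts and the T cell receptor chain gene Cd3e at 1243, 1251 and 1180 counts. Summed over 8 regulatory T cell markers the level was 3484, 3438 and 3424 CPM. Markers of other cells were also counted. The 8 B cell markers summed to 244, 312 and 405 CPM, the 6 plasma cell markers to 95.1, 511 and 182 CPM, the 9 monocyte and macrophage markers to 83.3, 90.8 and 110.4 CPM and the 8 neutrophil markers to 1.56, 78.4 and 9.75 CPM in libraries 1, 2 and 3. In bulk RNA fewer cells of a type and less RNA per cell cannot be told apart.

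All 9 receptor genes code for proteins of the same design, and the coding sequences show it. Their lengths lay between 1059 and 1134 bases, and identity between pairs of coding sequences ran from 47.5% (Ccr3 and Ccr10) to 67.8% (Ccr1 and Ccr3), with a median of 53.7% over 36 pairs. In an alignment of all 9 sequences, 144 of 971 positions without a gap held the same base in every gene (14.8%). The 30 bases with the most shared positions are shown because they show how the members differ where they differ least. They run 5′ to 3′ on the coding strand, and capitals mark the 14 positions that are identical in all 9 genes. In all 9 they include the codons of the aspartate, arginine and tyrosine motif, which sits at the inner end of the third membrane helix and takes part in G protein coupling.
Ccr7: TcAgcattGAccGcTAcgTaGCcATcGtcC
Ccr8: TgAgtgtgGAcaGgTAtcTgGCtATtGtcC
Ccr6: TcAgcatgGAccGgTAcaTtGCcATcGtcC
Ccr2: TgAcaattGAtaGgTActTgGCtATtGttC
Ccr4: TgAgcataGAcaGaTAccTgGCcATcGtgC
Ccr9: TcAgtgtgGAcaGaTAcaTtGCcATtGtaC
Ccr3: TgAcaattGAcaGaTAccTgGCtATcGtcC
Ccr1: TgAcgattGAcaGaTAccTgGCcATtGtcC
Ccr10: TcAgcgccGAccGcTAtgTgGCcATcGcaC

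These sequences also bear on how reads can be assigned. The longest exact run shared by 2 members was 47 bases, between Ccr1 and Ccr3. Of all stretches of 36 bases in a coding sequence, 14.6% in Ccr2, 1.17% in Ccr1 and 1.15% in Ccr3 occurred in a transcript of 1 other gene, and none did in Ccr4, Ccr6, Ccr7, Ccr8, Ccr9 or Ccr10. The Ccr2 count is therefore less certain than those of the other abundant members, since the sources used here do not state the read length or what became of reads with several matches. Ccr10 has the highest share of G and C in its coding sequence (62.8%) and Ccr2 the lowest (43.4%). In Ccr1, Ccr2, Ccr3, Ccr4, Ccr6 and Ccr8 a single exon holds the whole coding sequence, whereas Ccr7 has 3 coding exons and Ccr9 and Ccr10 have 2 each.

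The receptors were expressed at very different levels, with the lymph node homing receptor Ccr7 at the top and Ccr10 at the bottom. All 9 genes reached 1 CPM in every library, which 48.4% of the 22457 genes did, and 7 of them reached 5 CPM. The median over the 9 was 70.0 CPM, against 1.37 CPM over all genes and 18.4 CPM over genes with a count. The receptors together held 946, 948 and 982 CPM in libraries 1, 2 and 3. Of the family's counts Ccr7 alone took 39.6%, 39.4% and 41.2% in these libraries, and Ccr7, Ccr8 and Ccr6 were the largest contributors in each.

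**Figure D1:**
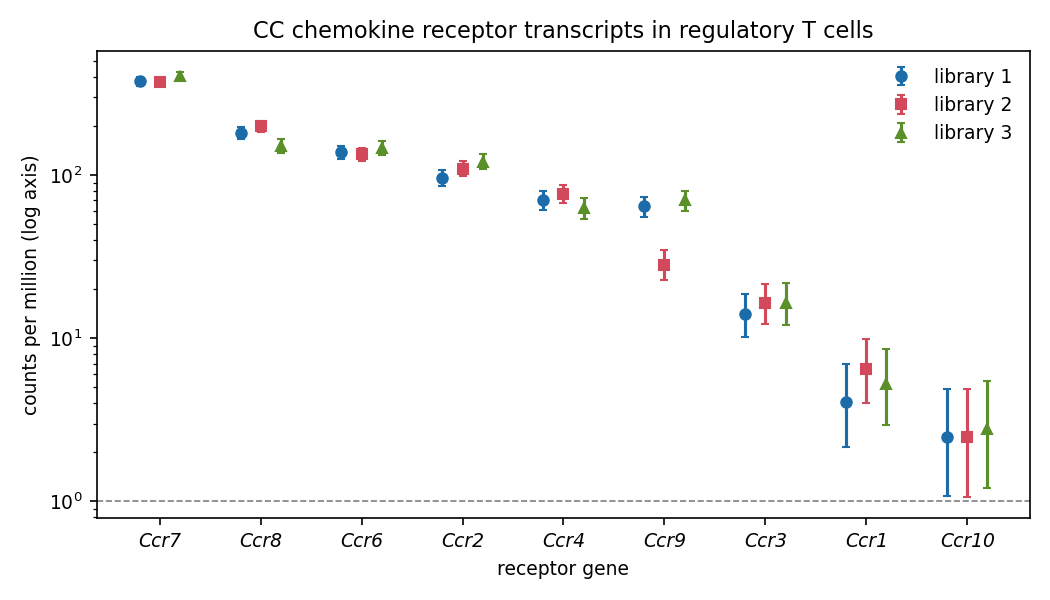
Level of each CC chemokine receptor gene in CPM on a log axis, for libraries 1, 2 and 3. Bars are 95% exact Poisson intervals of the count, which cover counting error only, and the dashed line marks 1 CPM. Ccr7 lies between 374 and 405 CPM, Ccr10 between 2.48 and 2.79 CPM, and Ccr9 is lower in library 2 than in the others.

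Ccr7, the receptor for Ccl19 and Ccl21 that leads T cells into lymph nodes, had 1203, 1207 and 1163 counts, or 375, 374 and 405 CPM in libraries 1, 2 and 3. Its length-scaled level of 440.3 ± 23.0 exceeded that of 98.3% of the 21784 genes with a known coding length. The gene lies on the minus strand of chromosome 11 (chr11:99144196-99155077, GRCm38, GENCODE M21 gene model, as are all gene positions here). Its libraries stood close together, and the highest exceeded the lowest by 1.11-fold in scaled counts.

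Receptors of tissue and effector regulatory T cells came next. Ccr8, which reads Ccl1 and in mouse Ccl8 and marks tissue regulatory T cells, had 583, 646 and 435 counts, or 182, 200.1 and 151 CPM (chr9:120092114-120094906, plus strand). Library 3 was lowest for Ccr8, and library 2 highest. Ccr6, the receptor for Ccl20 at mucosal surfaces, had 443, 433 and 423 counts, or 138, 134 and 147 CPM (chr17:8236043-8257141, plus strand). Ccr4, which reads Ccl17 and Ccl22 made by dendritic cells and in skin, had 225, 249 and 180 counts, or 70.2, 77.1 and 62.7 CPM (chr9:114490316-114504916, minus strand). The levels of Ccr6 and Ccr4 were alike in the 3 libraries, with the highest above the lowest by 1.12-fold and 1.20-fold in scaled counts.

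Ccr2, the receptor for Ccl2, Ccl7 and Ccl12 that is best known from inflammatory monocytes and is also carried by activated T cells, had 309, 353 and 348 counts, or 96.4, 109 and 121 CPM (chr9:124101950-124113557, plus strand). In mean level it stood between Ccr6 and Ccr4, and it was lowest in library 1 in CPM. Of the 9 monocyte and macrophage markers 6 reached 1 CPM in all libraries, and their sum was 83.3, 90.8 and 110.4 CPM, lowest in library 1 and highest in library 3 as Ccr2 was. The most abundant, Ms4a6c, stood at 96.2 ± 16.3 length-scaled, against 126 ± 13.5 for Ccr2, and Csf1r, the receptor of the macrophage growth factor, at 5.57 ± 2.61. Single markers differed in their order. In scaled counts Ms4a6c (128, 188 and 135 counts) was highest in library 2, and Csf1r (50, 19 and 46) and Cd68 (37, 23 and 46) were lowest there. Lyz2 (20, 29 and 38) and Ly6c2 (12, 17 and 19) had the order of the sum. The part of such cells in the Ccr2 level was not tested.

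Ccr9, the receptor for Ccl25 that leads cells to small intestine and thymus, was uneven. It had 206, 91 and 201 counts, or 64.2, 28.2 and 70.0 CPM (chr9:123678439-123784330, plus strand). Library 2, the deepest of the 3, held far fewer Ccr9 counts than either of the others, while libraries 1 and 3 were alike.

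The remaining receptors were low but above the floor, here 3 counts per library or 0.936, 0.929 and 1.04 CPM. Ccr3, the eotaxin receptor known from eosinophils, had 45, 53 and 47 counts, or 14.0, 16.4 and 16.4 CPM (chr9:124021972-124031689, plus strand). The markers Epx, Siglecf, Mcpt8, Fcer1a, Ms4a2 and Gata2 of eosinophils, basophils and mast cells had no count in any library, and 2 of the 10 on that list reached 1 CPM in all libraries. The list summed to 8.11, 8.67 and 10.1 CPM, and the part of such cells in the Ccr3 level was not tested. Ccr1, a receptor of inflammatory chemokines such as Ccl3 and Ccl5, had 13, 21 and 15 counts, or 4.05, 6.51 and 5.22 CPM (chr9:123962124-123968692, minus strand). The 8 neutrophil markers summed to 1.56, 78.4 and 9.75 CPM, highest in library 2 as Ccr1 was. The monocyte and macrophage markers summed highest in library 3. The part of such cells in the Ccr1 level was not tested. Ccr10, the receptor for Ccl27 in skin and Ccl28 in mucosa, had 8 counts in each library, or 2.49, 2.48 and 2.79 CPM (chr11:101172997-101175443, minus strand). Plasma cells also carry Ccr10, and the plasma cell transcripts Jchain (92, 389 and 129 counts) and Igha (4, 1007 and 149 counts) were highest in library 2, whereas Mzb1 (27, 45 and 43 counts) and Xbp1 (182, 201 and 202 counts) of the same list were highest in library 3 in scaled counts. The part of plasma cells in the Ccr10 counts was not tested.

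The order of the receptors by length-scaled level was Ccr7, Ccr8, Ccr6, Ccr2, Ccr4, Ccr9, Ccr3, Ccr1 and Ccr10, from 440.3 ± 23.0 down to 3.09 ± 0.224. All neighbours in this order were ordered alike in the 3 libraries, with ranges that did not overlap, except Ccr4 and Ccr9. Ccr4 stood at 84.0 ± 7.78 and Ccr9 at 63.8 ± 27.4 length-scaled, their ranges overlapped, and Ccr4 was higher in 2 of 3 libraries. Ccr7 exceeded Ccr8 by 2.06 ± 0.392-fold, and the closest ordered pair was Ccr8 over Ccr6 in library 3, at 1.07-fold. Ccr3 exceeded Ccr1 by 3.01 ± 0.471-fold and Ccr1 exceeded Ccr10 by 2.08 ± 0.531-fold. The order was not tested, since an exact two-sided sign test over so few libraries has a smallest p = 0.25. With merged exon length in place of coding length Ccr4 moved above Ccr2, whose annotated exons sum to 6760 bases against 3093 bases in Ccr4.

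The libraries were then compared receptor by receptor, by setting each gene's counts against Poisson expectation in a chi-square test, with Benjamini-Hochberg adjustment over all genes of mean count at least 10 and a threshold of 0.05. Ccr9 and Ccr8 differed between the libraries by more than counting error, and the other 6 receptors tested did not pass. Ccr10 had too few counts to be tested. The 2 of 8 receptors stand beside 27.6% of the 10282 genes tested over the whole table, so the share of receptors called was near the background.

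Ccr9 differed most (adjusted p = 1.28e-12, chi-square). In scaled counts library 3 stood above library 2 by 2.54-fold (95% exact binomial interval 1.97 to 3.29), and in library 2 it was 0.428 times its level in library 1 (0.330 to 0.550). Libraries 3 and 1 did not differ beyond counting error, with a ratio of 1.09 (0.890 to 1.33). Of all genes tested 4.03% passed with a highest library at least 2-fold above the lowest, 12.7% passed with library 2 lowest, and 1.29% passed, were lowest in library 2 and had such a ratio. Ccr9 also passed in a negative binomial model that allows all genes a common coefficient of variation of 12.5% (adjusted p = 0.0206), which 0.904% of the genes did. Without library 2 it did not pass (adjusted p = 0.676), and its adjusted p ranged from 1.19e-12 to 0.676 over 9 alternatives, 8 of which kept it past the threshold.

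Ccr8 was highest in library 2 and lowest in library 3 (adjusted p = 0.00148, chi-square), and of all genes 8.71% passed with library 2 highest and 7.91% with library 3 lowest. The difference was small, 1.29-fold between libraries 2 and 3 (95% exact binomial interval 1.14 to 1.46). It did not pass without library 3 (adjusted p = 0.369) or in the negative binomial model (adjusted p = 1.00), and passed in the other 7 of 9 alternatives, the adjusted p ranging from 4.59e-04 to 1.00 over the 9. Ccr4 had the same order of libraries, with a ratio of 1.20 between libraries 2 and 3 (0.989 to 1.47), and did not pass (adjusted p = 0.301, chi-square).

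Ccr2 lay at the threshold. Its adjusted p was 0.0519 (chi-square), library 3 stood highest, and the ratio of library 3 to library 1 had a 95% interval of 1.07 to 1.47. It passed in 5 of 9 alternatives, and over the 9 the adjusted p ranged from 0.0303 to 1.00. Ccr7 (adjusted p = 0.106), Ccr6 (0.383), Ccr1 (0.589) and Ccr3 (0.816) did not pass in the same chi-square test nor in any of their alternatives. For Ccr1 the counts leave a wide range, since the ratio of library 2 to library 1 had an interval from 0.747 to 3.40. B cells carry Ccr6 and Ccr7, whose scaled counts were highest in library 3 and lowest in library 2. The B cell marker Cd79a (111, 174 and 207 counts) was highest in library 3 but lowest in library 1. Of 7 B cell markers tested 5 passed the chi-square test, all highest in library 3, as 7.75% of all genes did. In scaled counts Cd22 (172, 165 and 149 counts) was highest in library 1 and Blk (22, 30 and 17 counts) in library 2, and neither passed. The part of B cells in the Ccr6 and Ccr7 levels was not tested.

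**Figure D2:**
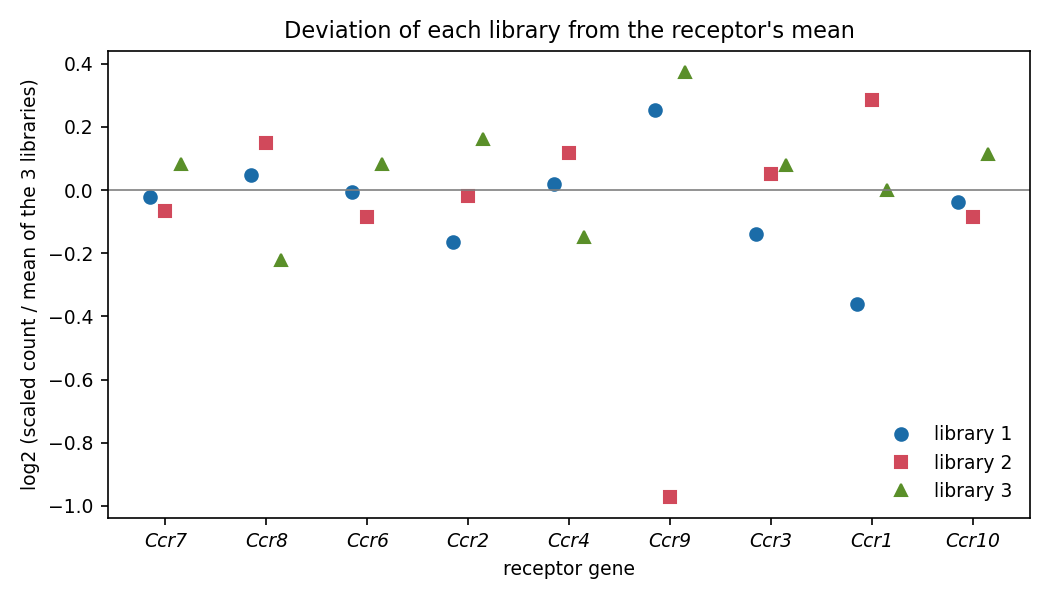
Deviation of each library from the mean of the 3 for each receptor, as log2 of the scaled count (count over library size) relative to the mean. Circles, squares and triangles are libraries 1, 2 and 3. The point of Ccr9 in library 2 lies far below the rest, and Ccr8 and Ccr4 are both lowest in library 3.

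Each receptor was also set beside genes of like counts per coding base (within 1.3-fold). Ccr7 stood at 1.05 counts per coding base, the others between 0.524 (Ccr8) and 0.00737 (Ccr10). In unscaled counts the log2 ratio of library 3 to library 1 was -0.05 for Ccr7, beside a median of -0.09 in 441 genes of like counts per base. For Ccr8 it was -0.42 beside -0.12 in 879 genes, and for Ccr2 0.17 beside -0.17 in 1262 genes. For Ccr9 the log2 ratio of library 2 to library 1 was -1.18 beside 0.02 in 1471 genes. With library sizes taken within bins of counts per coding base, an alternative chosen after seeing the data, Ccr9, Ccr8 and Ccr2 passed (adjusted p = 1.15e-11, 6.42e-04 and 0.0303, chi-square), beside 26.2% of all genes.

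**Figure D3:**
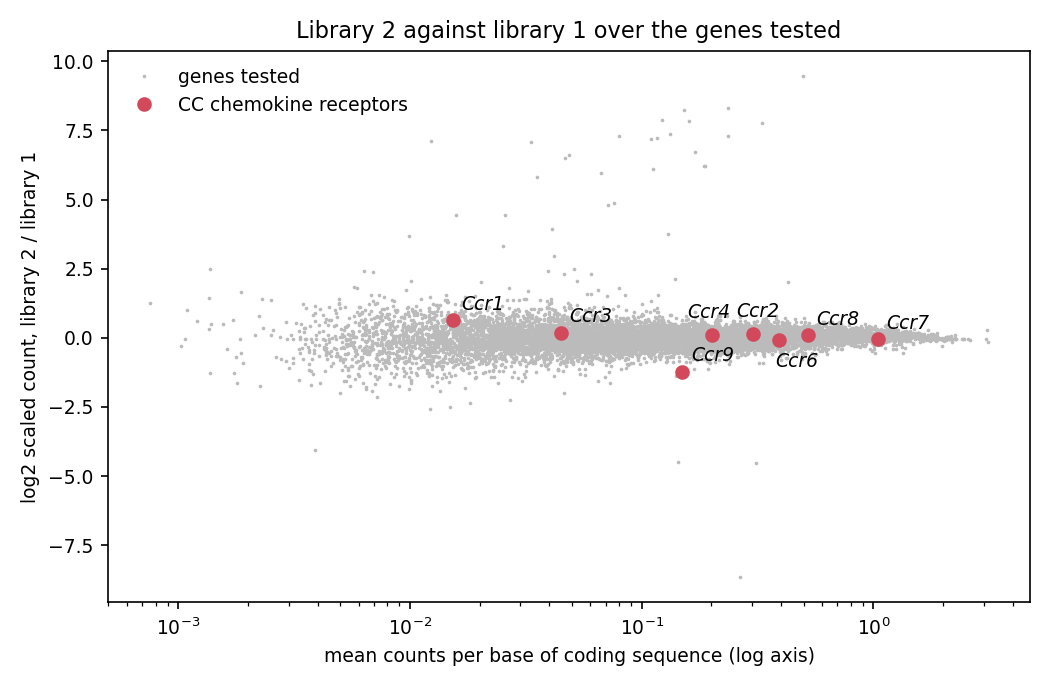
Log2 ratio of library 2 to library 1 in scaled counts (0.5 added to each) against mean counts per base of coding sequence on a log axis, for the genes tested that have a known coding length (grey) and the 8 receptors among them (red). Ccr9 lies at the lower edge of the cloud of genes with like counts per base, and the other receptors lie within it.

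Plasmacytoid dendritic cells and immature thymocytes are known to express Ccr9. Of 6 plasmacytoid dendritic cell markers, a list that holds Ccr9 itself, 4 reached 1 CPM in all libraries, Ccr9 among them. The list summed to 179, 159 and 188 CPM, of which Ccr9 made up 64.2, 28.2 and 70.0 CPM. Without Ccr9 the rest of the list was not lowest in library 2. Its defining marker Siglech had 1, 2 and 11 counts, while Bst2 had 266, 261 and 170, Ly6d 52, 92 and 99 and Tcf4 49, 67 and 56. Of these, Bst2 and Ly6d passed the library test (adjusted p = 0.00848 and 5.13e-04, chi-square) and were lowest in libraries 3 and 1. Of 5 immature thymocyte markers Rag1, Rag2 and Ptcra had no count in any library, whereas Dntt had 7, 19 and 7 counts and Cd1d1 had 268, 262 and 239. That list summed to 85.8, 87.0 and 85.6 CPM. Csf1r did share the order, with 50, 19 and 46 counts and library 2 lowest (adjusted p = 0.00138, chi-square), as did Cd68 with 37, 23 and 46 counts (adjusted p = 0.0190). Adgre1 (15, 14 and 25 counts) had this order in scaled counts but did not pass. Cd14 (4, 2 and 8 counts) had it too, with too few counts to be tested. The list of 9 monocyte and macrophage markers as a whole was not lowest in library 2. Its most abundant member Ms4a6c was highest there, and Lyz2 and Ly6c2 were lowest in library 1. The part of any other cell type in the Ccr9 counts was not tested. The M21 gene model of Ccr9 shares 1932 exon bases with a transcript on the opposite strand and 269 with one on the same strand, neither of which is in the count table. The sources used here do not state the strand setting of the counting, so reads of such transcripts could not be told apart from Ccr9.

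Ccr9, Ccr1, Ccr3 and Ccr2 lie in 1 cluster on chromosome 9 with the related receptors Cxcr6 and Xcr1, and neighbours in it differed widely in level. Over 11 genes within 523 kb (chr9:123590800-124113557) the length-scaled level was highest for Ccr2 at 126 ± 13.5, Cxcr6 at 90.6 ± 9.78, Fyco1, a gene of vesicle transport, at 66.3 ± 9.11 and Ccr9 at 63.8 ± 27.4. Lztfl1, a gene of ciliary transport that lies inside the Ccr9 gene model on the opposite strand and shares no exon base with it, stood at 40.2 ± 6.90. Ccr1 and Ccr3, between Xcr1 and Ccr2, were at 6.39 ± 1.35 and 18.8 ± 1.34. Ccr1l1, a close relative of Ccr1, had 2 counts in all, the dendritic cell receptor Xcr1 12 and the transporter genes Slc6a20b and Slc6a20a 22 and 0. Of the 7 of these genes tested, Ccr9 and Fyco1 (adjusted p = 2.09e-04, highest in library 1) passed the chi-square test, beside 27.6% of all genes, and in scaled counts library 2 was not the lowest library for Cxcr6, Fyco1 or Lztfl1.

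**Figure D4:**
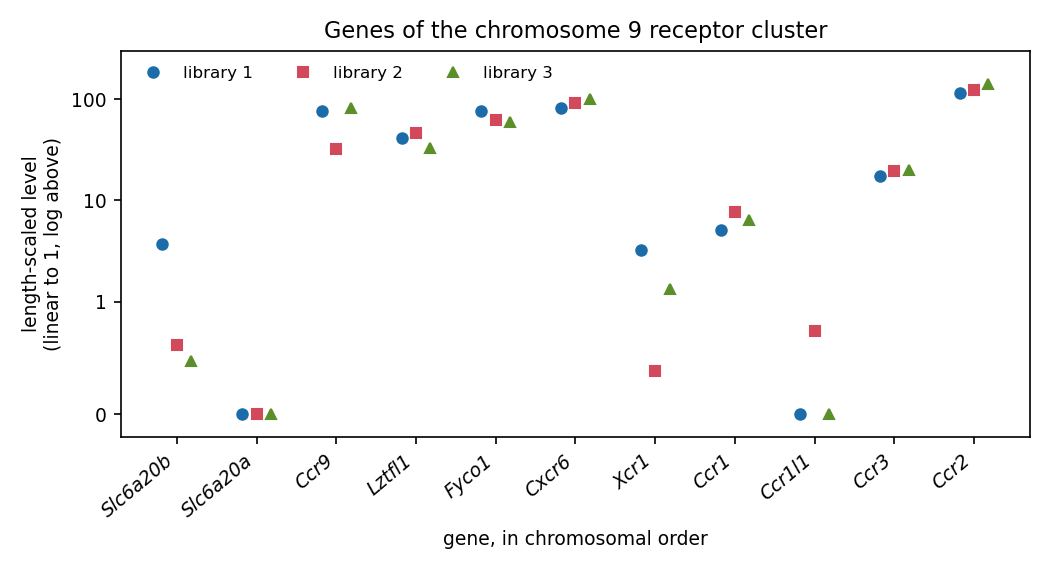
Length-scaled levels of 11 genes of the chromosome 9 receptor cluster in chromosomal order, for libraries 1, 2 and 3, on an axis that is linear to 1 and logarithmic above. Ccr2, Cxcr6 and Ccr9 are high, Ccr1 and Ccr3 between them are low, and library 2 is the low point of Ccr9.

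Upstream sequence of the receptor genes is given for Ccr8, Ccr6 and Ccr4, receptors of tissue regulatory T cells. Ccr8 and Ccr4 had the same order of libraries, though Ccr4 did not pass the library test, and Ccr6 had another order. A link between these sequences and the order of libraries was not tested. RefSeq (GRCm38.p6) gave promoters of 300 bases, from 250 before to 50 after the start, for 7 of the 9 receptors, with both starts of Ccr6 counted as 1 gene. Each was searched on both strands for motifs of 5 factor families. The GATA motif was spelled AGATAA. The motif of RUNX factors was spelled TGTGGT. The STAT motif was TTCNNNGAA. For AP-1, the family of Batf, it was TGANTCA. That of forkhead factors was TGTTTAC. Sequences run 5′ to 3′ in the direction of transcription and capitals mark the matches.
Ccr8 (chr9:120091883-120092182, plus strand): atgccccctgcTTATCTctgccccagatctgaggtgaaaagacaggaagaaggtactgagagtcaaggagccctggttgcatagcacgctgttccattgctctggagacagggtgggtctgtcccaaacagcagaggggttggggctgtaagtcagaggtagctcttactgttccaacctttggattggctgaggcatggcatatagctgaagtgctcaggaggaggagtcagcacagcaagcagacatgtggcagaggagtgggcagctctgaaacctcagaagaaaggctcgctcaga
Ccr6 (chr17:8235793-8236092, plus strand): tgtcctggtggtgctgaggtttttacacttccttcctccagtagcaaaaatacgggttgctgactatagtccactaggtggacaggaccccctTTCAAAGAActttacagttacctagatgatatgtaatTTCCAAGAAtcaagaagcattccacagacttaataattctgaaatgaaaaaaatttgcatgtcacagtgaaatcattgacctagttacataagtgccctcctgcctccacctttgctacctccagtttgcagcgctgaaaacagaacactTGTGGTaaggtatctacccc
Ccr4 (chr9:114496495-114496794, minus strand): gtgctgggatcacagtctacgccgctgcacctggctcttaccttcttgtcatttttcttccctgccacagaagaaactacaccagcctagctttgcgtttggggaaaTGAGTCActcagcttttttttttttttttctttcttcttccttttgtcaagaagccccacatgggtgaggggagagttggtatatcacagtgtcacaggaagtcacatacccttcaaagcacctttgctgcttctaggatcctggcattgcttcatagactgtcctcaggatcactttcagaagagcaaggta
Ccr8 held 1 GATA match, Ccr4 1 AP-1 match and the first start of Ccr6 2 STAT matches and 1 RUNX match, and no matches overlapped in these sequences. Among the 7 receptors the GATA motif was found in 4, RUNX in 2, AP-1 in 2, STAT in 1 and the forkhead motif in none. The GATA match of Ccr6 lay in the promoter of its second start, which is not shown. Over 32851 promoters of this length, each counted singly, the GATA motif was in 11.2%, RUNX in 16.8%, AP-1 in 7.81%, STAT in 8.30% and the forkhead motif in 3.65%. The share of G and C ran from 38% (Ccr2) to 54% (Ccr8) in the receptor promoters, beside a median of 52.7% over all promoters. These shares were not matched for it, and enrichment of a motif was not tested. A match describes the letters and not a bound site.

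Most ligands of these receptors were near or under the floor in the same cells. The median of 21 CC chemokine genes was 0.207 CPM, against 1.37 CPM over all genes, and in every library 4 of them reached 1 CPM. Ccl5, a chemokine of T and NK cells that acts on Ccr1 and Ccr3, was the exception with 367, 469 and 388 counts. Its length-scaled level of 625 ± 62.2 was above that of every receptor described, but this depends on its short coding sequence of 273 bases. In CPM, without length correction, Ccl5 stood at 132 ± 15.7, below Ccr7 (385), Ccr8 (178) and Ccr6 (140). Ccl1, a ligand of Ccr8, had 23, 48 and 23 counts, and Ccl25, the ligand of Ccr9, had 32, 23 and 26 counts. Ccl4 had 8, 30 and 28 counts. The ligands of Ccr7 (Ccl19 and Ccl21a) had no count, those of Ccr4 had 0 (Ccl17) and 1 (Ccl22) count over the 3 libraries, and Ccl20, the ligand of Ccr6, had 7. Ccl2, Ccl7 and Ccl12, the ligands of Ccr2, had 1, 0 and 2 counts. Several chemokine genes of this group, Ccl21a and Ccl27a among them, have near-identical copies in the mouse genome, and their counts are uncertain. Of the 4 ligands tested 3 passed the chi-square test, beside 27.6% of all genes tested (8.71% passed with library 2 highest and 7.75% with library 3 highest): Ccl1 (adjusted p = 0.0250) and Ccl5 (0.0307) were highest in library 2, and Ccl4 (0.00552) was highest in library 3.

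**Figure D5:**
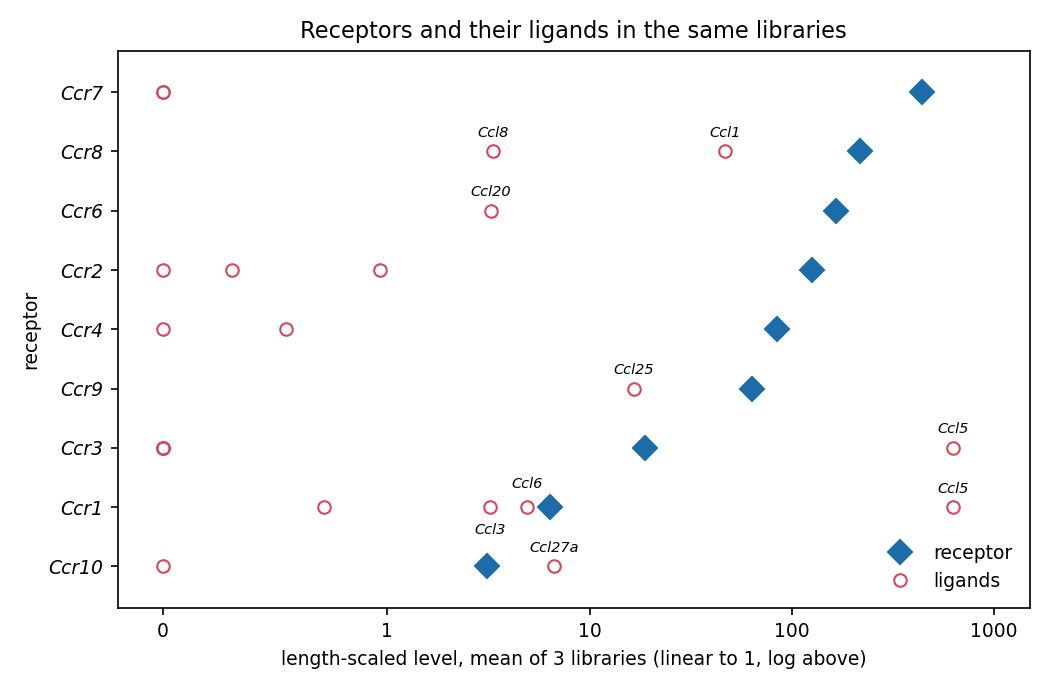
Length-scaled level of each receptor (diamonds) and of its ligands (open circles), mean of 3 libraries, on an axis that is linear to 1 and logarithmic above. Ligands above 1 are named. Only the ligands of Ccr1, Ccr3 and Ccr10 include a gene that lies above its receptor in length-scaled level. In CPM the Ccr10 ligand Ccl27a (2.53) did not lie above Ccr10 (2.59).

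Most receptors that bind chemokines without G protein signalling were near or under the floor. The 5 atypical receptor genes had a median of 0.323 CPM, and only Ccrl2, which binds chemerin on the cell surface, reached 1 CPM in all 3 libraries, with 118, 170 and 133 counts (54.2 ± 8.48 length-scaled). Ackr4, a scavenger of Ccl19, Ccl21 and Ccl25, had 4, 1 and 8 counts and Ackr2, a scavenger of inflammatory chemokines, 0, 2 and 1. None passed the chi-square test, and Ccrl2 alone had enough counts to be tested (adjusted p = 0.0656). Of the CXC, CX3C and XC receptors, with a median of 9.22 CPM, 4 of 8 reached 1 CPM, led by Cxcr3 at 312 ± 27.0, Cxcr5 at 156 ± 32.3 and Cxcr6 at 90.6 ± 9.78 length-scaled. Ccr7 thus stood above Cxcr3, and Ccr8 between Cxcr3 and Cxcr5, in the mean length-scaled level.

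Of the signalling genes that chemokine receptors share, most were expressed. The lists' medians were 39.6 CPM for G protein subunits, 48.8 for receptor kinases and arrestins, 123 for RGS genes and 152 for migration signalling. The median was 1.37 CPM over all genes and 18.4 CPM over genes with a count. Of 8 G protein subunit genes 7 reached 1 CPM, with the inhibitory alpha subunits Gnai2 at 403 ± 37.6 and Gnai3 at 260 ± 6.78 and the gamma subunit Gng5 at 239 ± 11.9 length-scaled, while Gnai1 had no count. Of 6 receptor kinases and arrestins 5 did, led by the arrestin Arrb2 at 182 ± 7.90, the kinase Grk2 at 157 ± 14.1 and Grk6 at 56.9 ± 2.22. Of 8 RGS genes, which speed the shut-off of G proteins, 7 did, led by Rgs1 at 746 ± 24.0, Rgs10 at 653 ± 13.8 and Rgs19 at 342 ± 16.4. Of 20 genes of migration signalling 19 did, led by the GTPase Rac2 at 942 ± 65.9, the actin regulator Coro1a at 887 ± 57.4 and the integrin activator Fermt3 at 443 ± 25.5. Tpst2, an enzyme that sulphates tyrosines of chemokine receptors, stood at 124 ± 16.6 and Tpst1 at 6.65 ± 1.01. In CPM, without length correction, the order within some lists differed. Dock2 (1730) and Tln1 (1084) of migration signalling stood above Coro1a (945), Fermt3 (682) and Rac2 (418). Gnb2 (69.3) stood above Gng5 (37.5) and Grk2 (250) above Arrb2 (177), whereas Rgs1 (360) and Rgs10 (273) still led the RGS genes.

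In the library test 2 of 7 G protein genes, 1 of 5 kinases and arrestins, 1 of 7 RGS genes, 13 of 19 migration genes and 1 of 2 sulphation enzymes passed, beside 27.6% of all genes. The 13 migration genes were highest in library 1 (3), library 2 (5) or library 3 (5), and 11.1%, 8.71% and 7.75% of all genes passed with these libraries highest. Gnai2 (adjusted p = 2.97e-04, chi-square) was highest in library 3, by 1.21-fold over library 1. Grk2 (adjusted p = 0.00331, chi-square) was highest in library 2, by 1.22-fold over library 1. None of the tested genes of these lists passed in the negative binomial model.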

How the data were processed

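PolyA plus RNA-seq counts of 3 libraries, 1 group, were used. The authors deposited 1 table per library with whole-number counts per gene, made from alignments to mm10 and the GENCODE M4 annotation, per the file descriptions deposited with the libraries. The aligner, counter, strand setting and any duplicate removal went unstated there (not given in the sources used here). Names, positions and coding lengths came from GENCODE M21 (22195 identifiers matched, 262 did not).

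Library sizes were totals times TMM factors (edgeR 4.0.16, R 4.3.3). Genes with a mean count of at least 10 were tested by Pearson's chi-square against Poisson with 2 degrees of freedom, with Benjamini-Hochberg adjustment over all of them. The test was checked on simulated counts. Ratios carry 95% exact binomial intervals, and all intervals and floors cover counting error only. The negative binomial model used edgeR's common dispersion. Other settings tried were plain totals, size factors of DESeq2 1.42.0, other filters and lengths, and leaving out each library; sizes within bins of counts per coding base were added after seeing the data.

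The members and lists were chosen with earlier results of these data known. Named genes were the receptors with their ligands and the 3 highest members of each list by length-scaled level. Members past the test with a ratio of at least 2, the cluster and defining markers were also named. Cd68, Ms4a6c, Lyz2, Ly6c2, Adgre1, Cd14, Cd22, Blk, Bst2, Ly6d, Tcf4, Dntt, Cd1d1, Jchain, Igha, Mzb1, Xbp1, Gnai1, Gnb2, Dock2, Tln1, Tbx21, Rora, Stat5a, Stat5b and the absent markers were named after their values were seen. Coding sequences were aligned with MAFFT 7.526 and Biopython 1.88. A protein comparison that the design foresaw was replaced by coding sequences. Some genes that the rules take are not reported here.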

Additional observations from a re-analysis of the deposited data

How the results depend on the processing

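The order of the receptors was the same without length correction and without each library, and with merged exon length 7 of 9 receptors kept their rank. Of 70 combinations of receptor and alternative, 62 left the receptor on its side of the threshold, 5 brought Ccr2 past it and 3 took Ccr8 or Ccr9 below it. The number of receptors called was 1 in the negative binomial model and 1 to 2 without 1 library, and the number of all genes called was 93 in that model and 960 to 2014 without 1 library (2836 in all). The cause of the lower numbers was not tested, though fewer libraries were compared. The 12.5% of the model was estimated from the same libraries. The median length-scaled level of the 9 receptors, 84.0 by coding length, was 60.6 by merged exon length, 53.0 by longest transcript length and 80.7 to 88.3 without 1 library. Their median percentile, 84.4 among genes with a coding length, was 77.1 among those with a count.  Depth limits Ccr1 and Ccr10 most, whose ratios of highest to lowest library have upper limits of 3.40 and 3.51. No paired analysis was possible because the labels give 1 group.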

Other observations

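Transcription factors that are known to act on these receptor genes were measured in the same libraries, as values outside the comparisons above. All 13 factors of the list reached 1 CPM in every library. Batf, an AP-1 factor of effector regulatory T cells, stood at 375 ± 39.2, Gata3, a factor of tissue regulatory T cells, at 323 ± 39.5 and Ikzf1, an Ikaros factor of lymphocytes, at 273 ± 18.6 length-scaled (SD, n = 3). Tbx21, which encodes T-bet, was lowest at 4.28 ± 0.907. Of the 13 factors 5 passed the chi-square test between libraries, beside 27.6% of all genes tested. Gata3 had 1008, 1238 and 848 counts (adjusted p = 2.14e-06, chi-square) and Rora 377, 397 and 271 (adjusted p = 0.0201), both highest in library 2 and lowest in library 3 in scaled counts. Stat5a (adjusted p = 1.36e-04) and Stat5b (adjusted p = 1.46e-04) were highest in library 1, and Ikzf1 (adjusted p = 0.0280) was highest in library 3 in the same chi-square test. Batf had 318, 401 and 294 counts (adjusted p = 0.0512).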
